A study of Homo sapiens with 6 samples.

Results

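The genes described here make and use microRNAs: DROSHA and DGCR8, XPO5, DICER1 and TARBP2, the Argonautes AGO1 and AGO2, and the GW182 proteins TNRC6A and TNRC6B. All probes whose platform annotation gave one of these 9 symbols, or an older name of it (RNASEN for DROSHA, EIF2C1 and EIF2C2 for AGO1 and AGO2), were taken as members, which made 18 of the 48803 probes on the array; the annotation names 18665 genes in all. The arrays compared HEK293T cells, a human embryonic kidney line carrying the SV40 large T antigen, with the same line after transfection with a clone of hsa-miR-128 (4 µg). There were 3 control and 3 transfected arrays, described in the series' design text as biological triplicates. It is not stated whether control cells were given an empty plasmid or left untransfected, how long after transfection the cells were taken or which of the miR-128 hairpins was cloned, and the array does not measure the mature microRNA, so its level could not be checked.

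A microRNA is transcribed as a long hairpin-bearing primary transcript. In the nucleus the microprocessor, in which DROSHA cuts and DGCR8 holds the RNA, releases the hairpin. XPO5 carries that precursor to the cytoplasm, where DICER1, an RNase III enzyme like DROSHA, removes the loop with its partner TARBP2. An Argonaute keeps a single strand of the resulting duplex, and TNRC6 proteins bridge the Argonaute to the deadenylases that shorten the tails of target messages. Every microRNA of a cell passes through most of these proteins, and so does one that is made from a plasmid as a hairpin.

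The sequence that this machinery was given to process is shown first, from RefSeq on GRCh38.p14, because both of its annotated hairpins yield the same mature strand. In the mature microRNA the capitals mark the seed, bases 2 to 8, with which it pairs to its targets. In the hairpins the capitals mark that mature strand. The hairpin of MIR128-1 lies at chr2:135665397-135665478 and that of MIR128-2 at chr3:35744476-35744559, both on the plus strand.
hsa-miR-128-3p: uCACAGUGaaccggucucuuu
MIR128-1: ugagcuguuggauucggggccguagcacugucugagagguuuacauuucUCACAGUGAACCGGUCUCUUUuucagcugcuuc
MIR128-2: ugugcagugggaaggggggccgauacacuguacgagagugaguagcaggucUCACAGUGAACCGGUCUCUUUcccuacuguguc
The hairpins are 82 and 84 bases long, with 12 and 14 bases between the annotated 5p and 3p arms, the stretch that DICER1 removes, and 14 bases before the 5p arm in each. Among the mature human microRNAs searched for the seed of miR-128-3p, 2 others have it, namely hsa-miR-216a-3p and hsa-miR-3681-3p. The search did not cover all of the 2370 in the table, so further matches may exist.

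The machinery was expressed in both groups, and none of its genes passed the test for a difference. Each of the 9 genes had at least 1 probe detected on all 6 arrays (detection p under 0.01), with deposited signals from 229 to 3224, and these 10 probes were tested. The other 8 probes stayed near background, with signals from 95.2 to 216, and were not tested because fewer than 3 arrays detected them. Of these, 6 were detected on no array, TNRC6A probe ILMN_1739573 on 1 (transfected array 2) and TARBP2 probe ILMN_2310253 on 2 (control 3 and transfected array 3). They comprised 2 of 4 probes for DICER1, 1 of 2 each for DROSHA and TARBP2, and 2 of 3 each for TNRC6A and TNRC6B. The annotation ties some of these untested probes to other transcripts of the gene than the bright probe, which holds for TARBP2, for 1 DICER1 probe and for 1 TNRC6B probe. Probe sequences were not used here, so neither the exon a probe reads nor its likeness to a paralogue was checked.

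**Figure D1:**
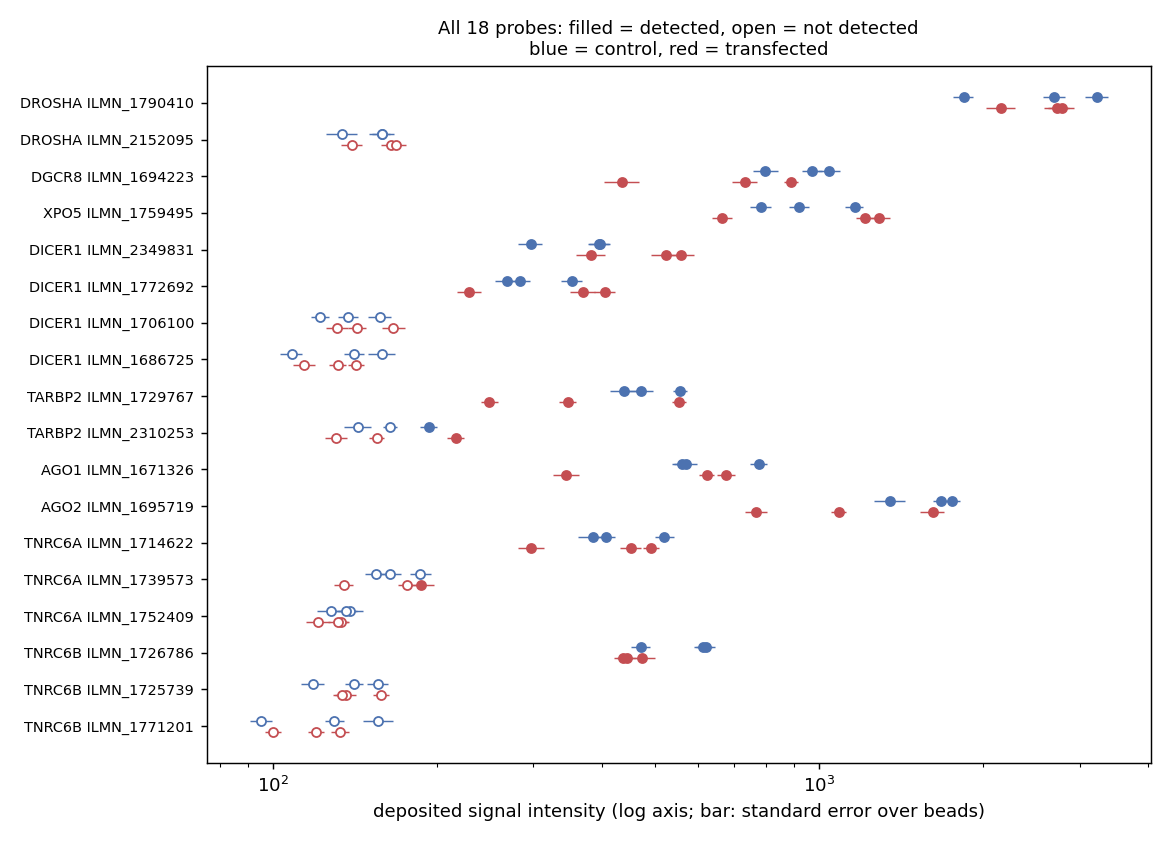
Deposited signal intensity of all 18 probes on each array, on a log axis, with bars for the standard error over the beads of a probe. Filled points were detected and open points were not; the 10 tested probes lie between 229 and 3224 and the other 8 between 95.2 and 216.

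Differences below are transfected minus control on the log2 scale, after background correction and quantile normalization, with the standard error of limma's moderated test and 3 arrays per group. Across all 14200 probes tested, 1 passed at a Benjamini-Hochberg adjusted p under 0.05, which is 0.00704%; it was lower in transfected cells, has no gene name here (ILMN_1815570) and is no member. Before adjustment, 26.1% of the 14200 probes and 1 of the 10 member probes had a p under 0.05. The arrays of the groups did not overlap in 31.2% of all probes tested, against 2 of the 10 member probes. By both measures the members thus differed between the groups no more often than the array as a whole. The members split evenly, 5 probes higher and 5 lower, with a median log2 difference of 0.08, beside -0.005 for all probes tested. In bulk RNA, fewer cells expressing a gene and less RNA per cell cannot be told apart.

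**Figure D2:**
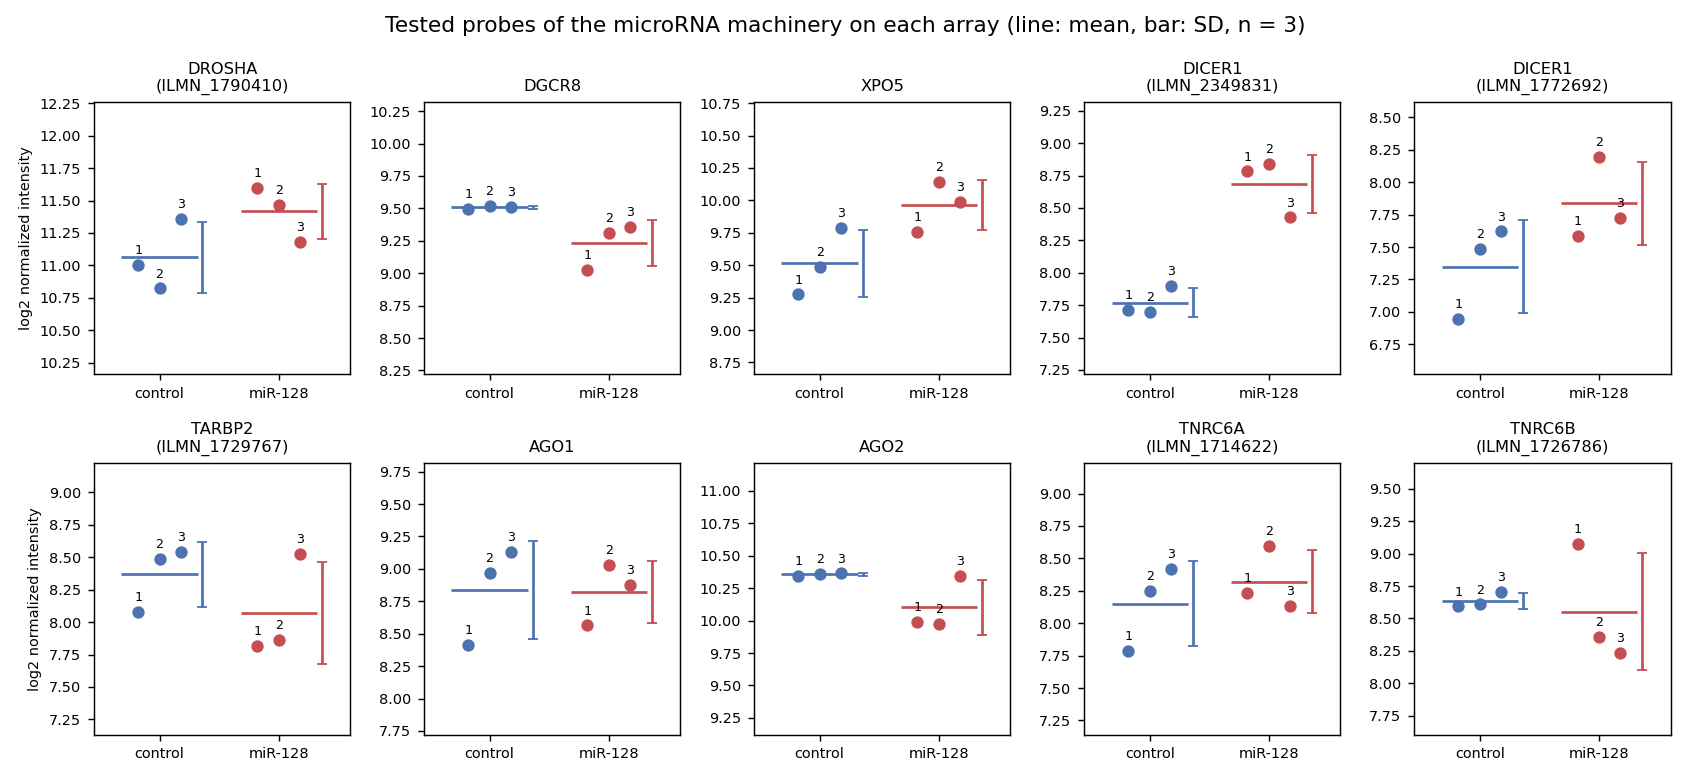
Normalized log2 intensity of the 10 tested probes on each array, numbered by replicate, with the mean (line) and SD (bar) of 3 arrays per group; every panel spans the same range of log2 units. DICER1 probe ILMN_2349831 and DGCR8 are the 2 probes whose groups do not overlap.

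DICER1, which trims precursors to the mature duplex, had the largest difference among the members. On its brighter probe, ILMN_2349831, log2 intensities were 7.71, 7.70 and 7.90 on controls 1 to 3 and 8.78, 8.84 and 8.43 on transfected arrays 1 to 3. All transfected arrays lay above all controls, the nearest being transfected array 3. The log2 difference was 0.92 ± 0.19 SE (95% interval 0.49 to 1.34), or 1.89-fold, with an adjusted p of 0.0664, which missed the threshold. By unadjusted p (0.00103) it ranked 218 of the 14200 probes. In the signals as deposited the groups did overlap, with 395, 297 and 397 on the controls and 382, 559 and 524 on the transfected arrays. The low value belonged to transfected array 1, the dimmest of the 6, whose mean signal over all probes was 408 against 512 to 660 elsewhere. With that array left out the log2 difference was 0.87 and with each array left out in turn it lay between 0.84 and 1.04. The standard error over beads was 4.51% to 6.26% of this probe's signal.

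The second DICER1 probe that was detected, ILMN_1772692, differed less clearly. Its log2 intensities were 6.94, 7.48 and 7.62 on the controls and 7.59, 8.20 and 7.72 on the transfected arrays. Transfected array 1 fell just under control 3, so the groups overlapped, and control 1 stood apart below the other controls. The log2 difference was 0.49 ± 0.25 SE (adjusted p = 0.248), and its 95% interval, -0.08 to 1.06, included the 0.92 of the brighter probe. Both probes are annotated to the same DICER1 transcript. With the order of slide sections as a covariate this probe turned to -0.12 ± 0.45, while the brighter probe came to 1.04 ± 0.39 (adjusted p = 0.101). All controls lay in sections A to C and all transfected arrays in D to F. With or without this covariate, for these and the other members, position on the slide and transfection cannot be told apart.

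The call on DICER1 turned on the processing. Over 17 other settings the difference of the brighter probe lay between 0.59 and 1.04 and was never negative. The 0.59 came with arrays scaled to equal medians over all 48803 probes, which moved the median difference of the 14200 tested probes to -0.30. In 4 of the 17 settings the brighter probe passed the adjusted threshold. These were no background correction (adjusted p = 0.0475, where 2.39% of all probes passed) and only probes detected on all 6 arrays (0.0482, 2.53%). The others were leaving out transfected array 3 (0.0382, 12%) and array quality weights (0.000746, 49.7%). Those weights were 3.76 for transfected array 2 against 0.291 and 0.374 for transfected arrays 1 and 3. With them the second DICER1 probe, ILMN_1772692, passed too (0.62, adjusted p = 0.0116). Where the brighter probe did not pass, its adjusted p reached 0.303, with control 2 left out.

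**Figure D3:**
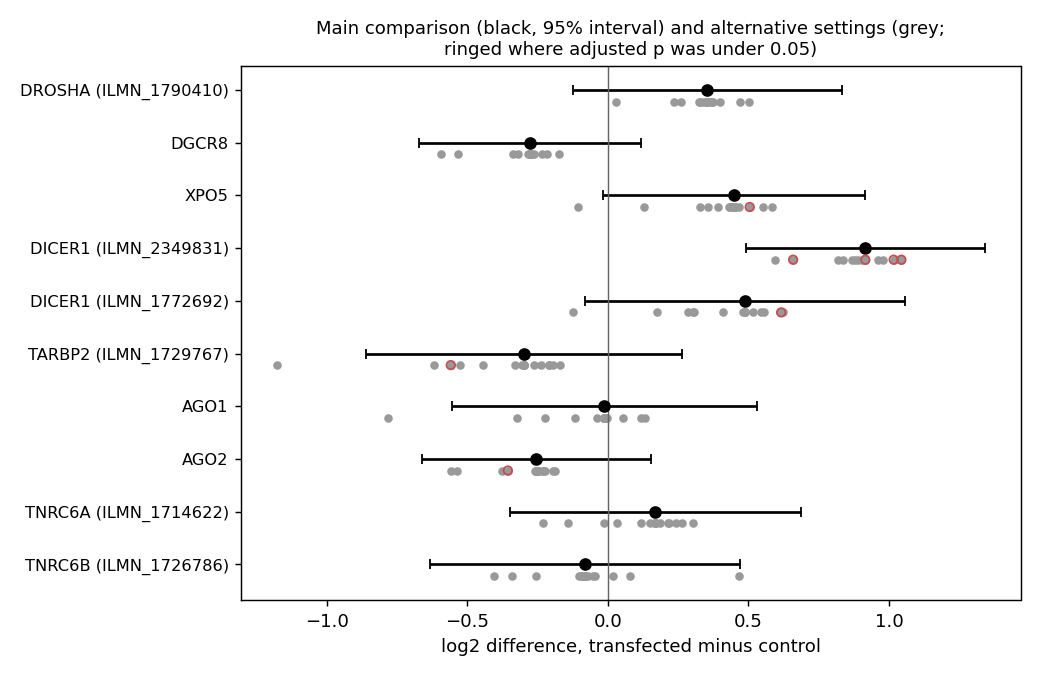
Log2 difference of each tested member probe with its 95% interval (black) and under the alternative settings (grey, ringed where the adjusted p was under 0.05). Only the interval of DICER1 probe ILMN_2349831, 0.49 to 1.34, lies clear of 0, and it carries 4 of the 8 rings.

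In the microprocessor, DROSHA and DGCR8 lay on opposite sides of 0 and neither passed the test. DROSHA, the nuclear RNase III, had log2 intensities of 11.00, 10.82 and 11.36 on the controls and 11.60, 11.47 and 11.18 on the transfected arrays. Transfected array 3 lay below control 3, so the groups overlapped, and the log2 difference was 0.35 ± 0.21 SE (adjusted p = 0.310). Over the 17 other settings it lay between 0.03 and 0.50. The 0.03 came with arrays scaled to equal medians, where the median of all tested probes was -0.30. DGCR8, the double-stranded RNA binding protein that positions DROSHA, read 9.50, 9.52 and 9.51 on the controls and 9.03, 9.31 and 9.35 on the transfected arrays. Every transfected array was below every control, with an SD of 0.01 among the controls and 0.18 among the transfected arrays. The log2 difference was -0.28 ± 0.17 SE, 1.21-fold lower, with an adjusted p of 0.330. Its sign held under all 17 other settings, from -0.59 (equal medians) to -0.17, and it passed under none of them.

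XPO5, the exportin of precursor hairpins, had log2 intensities of 9.27, 9.48 and 9.79 on the controls and 9.76, 10.15 and 9.99 on the transfected arrays. Only transfected array 1 overlapped the controls, falling just below control 3. The log2 difference was 0.45 ± 0.20 SE (unadjusted p = 0.0569, adjusted p = 0.203), the second largest among the genes. It passed under 1 of 17 other settings, array quality weights, where 49.7% of all tested probes passed. It turned to -0.11 with slide section as a covariate and was 0.13 with equal medians, where the median of all tested probes was -0.30.

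TARBP2, the RNA binding partner that helps hand the duplex from DICER1 to an Argonaute, lay on the other side of 0 from DICER1 and did not pass the test. Log2 intensities of its bright probe were 8.08, 8.48 and 8.54 on the controls and 7.82, 7.86 and 8.53 on the transfected arrays. Transfected arrays 1 and 2 were below all controls and transfected array 3 was level with the highest of them. The log2 difference was -0.30 ± 0.25 SE (adjusted p = 0.458), and it was -0.53 with transfected array 3 left out. With slide section as a covariate it was -1.18 ± 0.38 (adjusted p = 0.0712). Equal medians, under which the median of all tested probes was -0.30, gave -0.62. With array quality weights TARBP2 passed (-0.56, adjusted p = 0.0122), as did 49.7% of all tested probes.

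Neither Argonaute passed the test. AGO1 gave 8.41, 8.97 and 9.13 on the controls and 8.56, 9.03 and 8.88 on the transfected arrays, all 3 of the latter within the range of the controls. Its log2 difference was -0.01 ± 0.24 SE (95% interval -0.56 to 0.53, adjusted p = 0.979), and its sign changed when single arrays were left out; it was -0.78 ± 0.39 with slide section as a covariate (adjusted p = 0.199) and -0.32 with equal medians. AGO2, the human Argonaute that can itself cut a well-matched target, gave 10.34, 10.36 and 10.36 on the controls and 9.99, 9.97 and 10.35 on the transfected arrays. Transfected arrays 1 and 2 were lower than the controls and transfected array 3 lay among them. The log2 difference was -0.25 ± 0.18 SE (interval -0.66 to 0.15, adjusted p = 0.383). It was -0.38 without transfected array 3, -0.54 with slide section as a covariate and -0.56 with equal medians. With equal medians, given for AGO1 too, the median of all tested probes was -0.30. With array quality weights AGO2 passed (-0.36, adjusted p = 0.0334), as did 49.7% of all tested probes. A p that misses the threshold does not show equal levels.

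For the GW182 scaffolds, which recruit the CCR4-NOT and PAN2-PAN3 deadenylases, no side could be given. TNRC6A had 7.78, 8.25 and 8.42 on the controls and 8.23, 8.59 and 8.13 on the transfected arrays, with a log2 difference of 0.17 ± 0.23 SE (adjusted p = 0.657). TNRC6B had 8.59, 8.61 and 8.70 on the controls and 9.07, 8.36 and 8.23 on the transfected arrays, so that transfected array 1 lay above all controls and the other 2 below them. Its log2 difference was -0.08 ± 0.24 SE (adjusted p = 0.851), and the sign of either gene changed under 3 of 17 other settings.

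Several of these proteins are partners or close relatives in pairs. A ratio taken within an array is unchanged when that array is scaled by a constant. The ratios here were taken after background correction and quantile normalization, which is no such scaling, so they still depend on the normalization. This comparison was added after the values had been seen. The log2 ratio of DICER1 to TARBP2 was -0.36, -0.79 and -0.65 on the controls and 0.96, 0.98 and -0.10 on the transfected arrays, a shift of 1.21, with no overlap. Transfected arrays 1 and 2 carried most of it. In a two-sided exact permutation test of 3 against 3 arrays p was 0.1, the smallest such a design can give, and 0.4 after adjustment over the 4 pairs compared. The ratio of DROSHA to DGCR8 shifted by 0.63 (exact permutation p = 0.2), with transfected array 3 (1.83) inside the range of the controls (1.31 to 1.85). The ratio of AGO1 to AGO2 shifted by 0.24 (exact permutation p = 0.6) and that of TNRC6A to TNRC6B by 0.25 (exact permutation p = 0.5), both with overlapping groups.

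Fold changes over the whole array moved with gene size, and the members are mostly long genes. Over 9792 tested genes with a known genomic span the Spearman correlation between span and log2 difference was 0.29, given as a description across genes, which are not independent. The median log2 difference was -0.27 in the shortest of 4 equal classes of genes, -0.10 and 0.08 in the middle classes and 0.13 in the longest. TARBP2, the one short member with 5.51 kb, had -0.30. DICER1, at 71.8 kb near the top of the third class, had 0.92, and XPO5, at 53.7 kb in the same class, 0.45. The other members of that class, AGO1 (60.8 kb) and DGCR8 (31.6 kb), had -0.01 and -0.28, below its median. Of the 4 members in the longest class, DROSHA (132 kb) and TNRC6A (216 kb) had 0.35 and 0.17, and AGO2 (122 kb) and TNRC6B (291 kb) had -0.25 and -0.08. The part of gene size in these values was not tested.

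**Figure D4:**
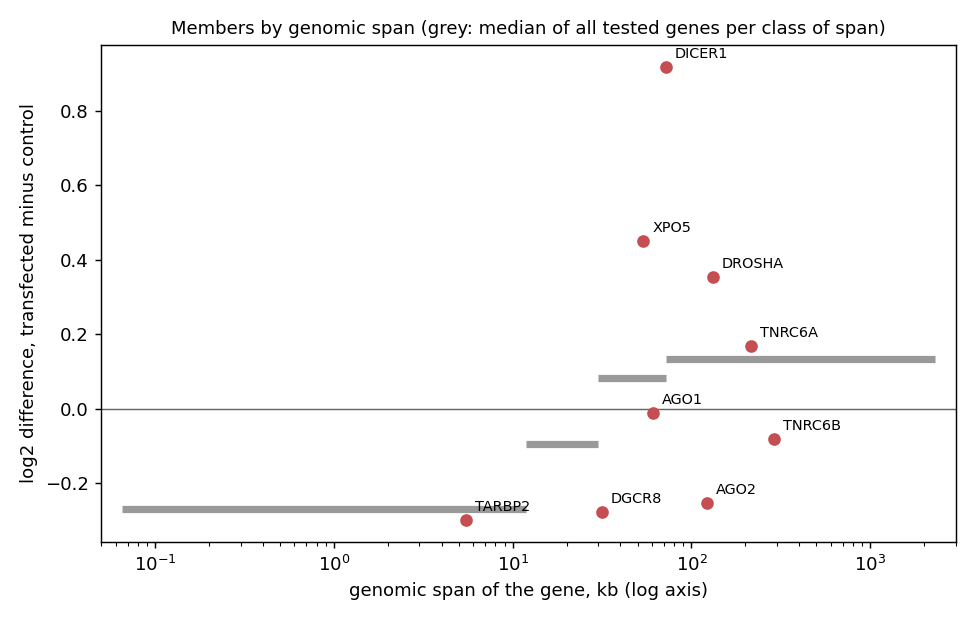
Log2 difference of the 9 members, each by its brightest tested probe, against the genomic span of the gene in kb (log axis), with grey bars for the median of all tested genes in each of 4 classes of span. DICER1 (71.8 kb, 0.92) lies far above the bar of its class (0.08) and TARBP2 (5.51 kb, -0.30) near that of its own (-0.27).

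Some members are themselves templates for microRNAs. In RefSeq, DGCR8 holds hsa-miR-3618 and hsa-miR-1306 on its strand, and DICER1 holds hsa-miR-3173. Among the microRNAs searched, none was found in the other 7 genes. The promoter windows of 8 member genes were matched in RefSeq (14 windows of 300 bases). CpG dinucleotides numbered 0 to 57 in these windows, and 11 of the 14 held more than the 14 of the median window in the whole table. DICER1 has 5 such windows, from 0 to 37 CpG, and the arrays do not tell from which of them its transcripts came.

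The probes most like DICER1 over the 6 arrays were those of HNRNPH3 (Pearson r = 0.9997), SMC6 (0.998), NPM1 (0.996), TAF1D (0.995) and FAM241A (0.995). Their log2 differences ran from 0.38 for NPM1 to 0.91 for TAF1D. Likeness on 6 arrays is common here, since 335 of 12099 candidate probes correlated with DICER1 above 0.95. Those most like AGO2 were SNRPA (0.999), CTSL (0.997), ALDH6A1 (0.997), DIP2A (0.996) and DPF2 (0.995), with log2 differences of -0.25 to -0.66.

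In the wider pathway, too, differences were no more frequent than among all genes. Of 85 further genes in 7 lists, 75 were tested, each by its brightest kept probe, and none passed at an adjusted p under 0.05 (0% of 9797 genes did). Before adjustment 12 of the 75, or 16%, had a p under 0.05, against 27.7% of all 9797 genes. The arrays of the groups did not overlap in 15 of the 75, or 20%, against 32.8%. There were 45 genes higher and 30 lower, with a median log2 difference of 0.08, beside -0.03 for all genes.

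Among the paralogues of the members, AGO3 and PRKRA, the second DICER1 partner, had log2 differences of 0.37 ± 0.17 and 0.40 ± 0.21 SE (adjusted p = 0.207 and 0.254). AGO3 read 7.18, 7.01 and 6.92 on the controls and 7.40, 7.54 and 7.30 on the transfected arrays, which did not overlap. AGO4, detected on 2 of the 3 arrays of each group, had 0.004 ± 0.27, and TNRC6C was too dim to be tested. The microprocessor cofactors had 0 of 13 genes at an unadjusted p under 0.05 and 0 of 13 without overlap. Among all genes these shares were 27.7% and 32.8%. Their smallest p values were those of the cap-binding proteins NCBP2 and NCBP1 (0.39 ± 0.20 and 0.31 ± 0.18) and of HNRNPA1 (0.29 ± 0.21).

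For export and import, XPO1, the exportin of proteins and many RNAs, had a log2 difference of 0.49 ± 0.22, close to that of XPO5. RCC1, which loads RAN with GTP, and RANGAP1, which triggers its hydrolysis, had -0.53 ± 0.21 and -0.46 ± 0.20 (adjusted p = 0.166 and 0.196). RAN itself, whose GTP-bound form XPO5 needs to hold its cargo, had 0.19 ± 0.25. Of 8 genes for precursor uridylation and decay, 1 (12.5%, against 27.7% of all genes) had an unadjusted p under 0.05. That gene was LIN28B, which blocks the maturation of let-7. It read 10.89, 11.18 and 11.02 on the controls and 11.54, 11.60 and 11.34 on the transfected arrays, without overlap, for a log2 difference of 0.47 ± 0.18 (adjusted p = 0.150). XRN2 and the uridylyl transferase TUT4 had 0.49 ± 0.36 and 0.25 ± 0.20.

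In the list of Argonaute loading chaperones and turnover factors the groups did not overlap in 8 of 14 genes (57.1%), against 32.8% of all genes. Of these, 5 were higher and 3 lower. An unadjusted p under 0.05 was found for 5 of 14 genes (35.7%), against 27.7% of all genes. TSNAX, a subunit of the nuclease that clears passenger strands, had a log2 difference of 0.71 ± 0.21 (adjusted p = 0.0976), with 9.68, 9.22 and 9.69 on the controls and 10.02, 10.27 and 10.43 on the transfected arrays. MOV10, a helicase bound to Argonautes, had -0.61 ± 0.19 (adjusted p = 0.111), and the HSP70 family member HSPA4 0.50 ± 0.17 (adjusted p = 0.123). The major chaperones HSP90AA1, HSP90AB1 and HSPA8 had log2 differences of 0.18, -0.04 and -0.11, with overlapping groups.

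Downstream of TNRC6, the deadenylases had 2 of 16 genes (12.5%) at an unadjusted p under 0.05, against 27.7% of all genes. CNOT4, a ubiquitin ligase tied to CCR4-NOT, had 0.56 ± 0.19, and PAN3 and PAN2, the subunits of a single deadenylase, had 0.54 ± 0.23 and -0.32 ± 0.17 (adjusted p = 0.183 and 0.262). The scaffold CNOT1 had 0.28 ± 0.17 without overlap, and the catalytic subunits CNOT7 and CNOT8 had -0.23 ± 0.18 and 0.30 ± 0.21. CNOT7 had 2 tested probes, and the dimmer of them lay on the other side of 0. In decapping and 5′ decay, 3 of 15 genes (20%) had an unadjusted p under 0.05, against 27.7% of all genes. EDC4, the decapping scaffold, had -0.82 ± 0.31, and XRN1, the exonuclease that degrades decapped messages, 0.69 ± 0.29. AJUBA, a LIM protein of P bodies, had 0.50 ± 0.20. In EDC4 and XRN1 transfected arrays 1 and 2 lay beyond the controls while transfected array 3 did not, with 8.31, 8.49 and 9.44 for EDC4 against 9.70, 9.75 and 9.25 on the controls. Their adjusted p was 0.149 and 0.185.

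**Figure D5:**
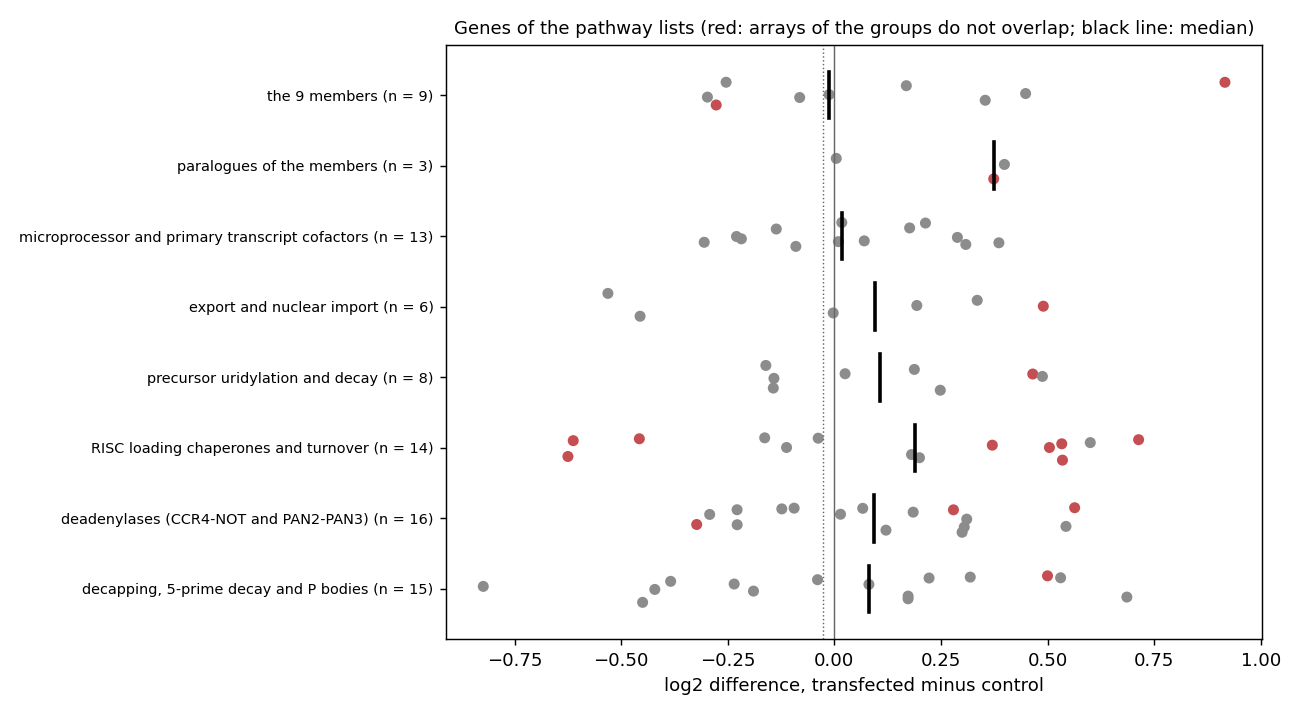
Log2 difference of each tested gene in the 9 members and the 7 wider lists, red where the arrays of the groups did not overlap, with the list median (black line) and the median of all tested genes (dotted line, -0.03). List medians lie between -0.01 for the members and 0.37 for the 3 paralogues.

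Over the whole series, transfected array 3 lay nearest the controls, at -5.81 on a first principal component (49.9% of the variance) that held controls at -37.26 to -12.49 and transfected arrays 1 and 2 at 52.05 and 30.86. Among 9 HEK293 markers on the array, 6 were detected on all 6 arrays and PAX2, LHX1 and NEFM on none. Of 10 markers of other cell types 8 were detected on no array, while HBA1 and COL1A1 were detected on all.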

How the data were processed

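Per the file headers, the deposited table gives signal intensity, its detection p-value, its standard error and the bead number for each probe and array; the submitters' processing notes name BeadStudio without a version. The authors also deposited a table of processed intensities, a straight line of the same signal (r at least 0.999997), with medians of 9.47, 10.3, 10.0, 15.5, 12.5 and 10.5 on controls 1 to 3 and transfected arrays 1 to 3; it is linear and uncentred, its method not given in the sources used. Signals were corrected from the detection p (neqc, offset 16), quantile normalized and log2 transformed with limma 3.58.1 in R 4.3.3; 1 probe in duplicate rows was averaged. Symbols came from the platform annotation, updated through RefSeq: 27578 probes had 1 gene, 13 several and 21212 were unnamed here. Probes that 3 or more arrays detected (p under 0.01; 14200) were compared with lmFit and eBayes, two-sided, adjusted by Benjamini-Hochberg over all of them; the p-values measure the spread between these arrays. The fit was tested on simulated data with noise drawn independently for each probe. Shifts shared by a whole array were not simulated. Pairs of arrays differed by 1.67 to 5.90 times the noise between beads. Detected probes numbered 12995 to 14345 per array, with 36.3 to 38.1 beads per probe on average; 3 arrays per group limit the precision. The arrays lay on 1 slide, controls in sections A to C and transfected cells in D to F, so position and transfection cannot be told apart. Members, lists and tests were chosen with earlier results of these data known; named genes were all members, the 3 of each wider list with the smallest p, the 5 most like DICER1 and AGO2, and others for their role, chosen after their values were seen.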

Additional observations from a re-analysis of the deposited data

How the results depend on the processing

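The number of probes past the threshold was 1 of 14200 and rose to 340 without background correction, 88 with arrays scaled to equal medians, 2 with the authors' processed intensities, 300 of 11860 among probes detected on all 6 arrays, 7058 with array quality weights and 1454 with slide section as a covariate. It was 0 with an offset of 50, with cyclic loess, with one probe per gene and with eBayes using trend and robust, and 0 to 1702 with 1 array left out. Member probes past the threshold numbered 0, except 1 without background correction and 1 among probes detected on all 6 arrays (both DICER1), 5 with array quality weights (both DICER1 probes, XPO5, TARBP2 and AGO2), and 0 to 1 with 1 array left out. Of the 75 wider pathway genes 27 passed with array quality weights and 2 with slide section as a covariate. With 1 array left out 0 to 5 passed, the 5 being without transfected array 3, and under the other settings 0 did. Of all tested probes, 2.39% passed without background correction, 2.53% among those detected on all 6 arrays, and 49.7% with array quality weights. The share was 10.2% with slide section as a covariate and 12% without transfected array 3. Signs turned in 11 of 169 member values. With slide section as a covariate XPO5 came to -0.11, DICER1 probe ILMN_1772692 to -0.12, TNRC6A to -0.23 and TNRC6B to 0.47; TARBP2 and AGO1 kept their sign at -1.18 and -0.78. Scaling to equal medians over all 48803 probes moved the median difference of the tested probes to -0.30, TNRC6A to -0.14 and DROSHA to 0.03. Under this scaling and in the main fit, 5 member probes lay above the median of the tested probes. With 1 array left out, AGO1 ranged from -0.224 to 0.134, TNRC6A from -0.0144 to 0.302 and TNRC6B from -0.341 to 0.0796; AGO1 turned positive without control 2, control 3 or transfected array 1, TNRC6A negative without control 1, and TNRC6B positive without transfected array 2 or 3. The quality weights were 0.291 and 0.374 for transfected arrays 1 and 3, 0.428 for control 1 and 2.32 to 3.76 for the other arrays. The causes were not tested. No paired analysis was possible because the labels number no replicates. Signals of 8 member probes were too near background for any comparison.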
